A study of Caenorhabditis elegans with 2 samples.

Results

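The rps genes of the nematode Caenorhabditis elegans encode the proteins of the small subunit of the cytosolic ribosome. They were taken as all protein-coding genes of the Ensembl annotation (assembly WBcel235, the same sequence as ce11) whose symbol is rps- followed by a digit, which gave 31 genes, rps-0 to rps-30, of 19973 protein-coding genes on the nuclear chromosomes. Binding was measured by chromatin immunoprecipitation and sequencing (ChIP-seq) in 1 group of 2 biological replicates, with no second condition. Whole L1 larvae, the first larval stage, were starved after bleaching and had a labelled age of 6 h. They came from strain OP791, which carries the transgene wgIs791 in an unc-119 (tm4063) mutant. This transgene is a fosmid with nhr-19 fused to TY1, EGFP and 3xFLAG tags, together with unc-119(+) as the rescue marker. Both replicates share this genotype and stage. The immunoprecipitation used anti-GFP according to the description, while the antibody field reads nhr-19, a disagreement in the labels that is left as it stands. Chromatin was sonicated to a labelled size of 200 to 800 bp. NHR-19 belongs to the nuclear hormone receptors, a family of DNA-binding transcription factors that is greatly expanded in nematodes. No control or other tagged protein was analysed here, so signal particular to NHR-19 was not separated from signal that any such experiment would give. Material from whole larvae mixes all tissues, so strong binding in few cells and weak binding in many cannot be told apart.

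The small subunit holds the decoding centre, where the anticodon of a transfer RNA is paired with the codon, and it carries the channel through which the messenger RNA is threaded. Its proteins fold onto 1 ribosomal RNA, which forms a head above a body and a platform. Cells need these proteins in matched amounts and in great number, and ribosomal protein genes are among the most highly transcribed genes of growing cells. In starved L1 larvae growth is arrested until food is found. Many C. elegans messenger RNAs are trans-spliced, meaning that a short leader made elsewhere replaces the start of the transcript. The annotated 5′ end of such a gene is often the splice site, and transcription starts at some distance upstream of it.

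These 6 stretches of DNA show what lay under the summits. Each runs from 50 bases before to 50 bases after the summit (the base of highest signal within a peak), is read 5′ to 3′ on the strand of the gene, and comes from the RefSeq copy of the ce11 assembly. The first 3 are the summits of highest signal outside the chromosome whose sequence is not printed here. The summit of rps-2 had the lowest signal of all rps genes and the windows of rps-14 and rps-30 are 2 of those shared with a gene for a large subunit protein. Capitals mark TATAAA in rps-2, CCGCCC in rps-28, and, in rps-12, rps-14 and rps-30, the words CAGCCA and CGCAGC or their reverse complements TGGCTG and GCTGCG. The last pair of words was chosen from the rps windows themselves. The windows lie at chrIII:5679089-5679189 (plus strand) for rps-12, chrIII:4475618-4475718 (plus) for rps-1, chrIV:1659191-1659291 (plus) for rps-28, chrIV:7926442-7926542 (minus) for rps-2, chrIII:7179787-7179887 (minus) for rps-14 and chrV:7776269-7776369 (plus) for rps-30.
rps-12: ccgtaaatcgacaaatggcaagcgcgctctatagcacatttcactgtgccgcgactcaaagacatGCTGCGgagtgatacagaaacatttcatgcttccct
rps-1: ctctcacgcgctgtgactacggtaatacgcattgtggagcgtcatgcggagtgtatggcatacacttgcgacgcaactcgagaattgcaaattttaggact
rps-28: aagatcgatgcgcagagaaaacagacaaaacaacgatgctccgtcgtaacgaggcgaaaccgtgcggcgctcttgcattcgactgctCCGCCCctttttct
rps-2: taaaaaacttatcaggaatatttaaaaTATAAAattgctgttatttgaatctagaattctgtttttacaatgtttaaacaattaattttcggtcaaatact
rps-14: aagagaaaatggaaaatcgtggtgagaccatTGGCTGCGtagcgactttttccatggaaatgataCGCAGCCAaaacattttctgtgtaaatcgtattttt
rps-30: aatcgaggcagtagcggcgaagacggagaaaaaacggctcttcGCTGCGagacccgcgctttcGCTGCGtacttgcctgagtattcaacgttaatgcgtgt
In rps-14 the 8 bases TGGCTGCG stand on one side of the summit and their reverse complement CGCAGCCA on the other. In rps-30 the word GCTGCG occurs at 2 places. The rps-1 window holds none of the words searched.

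A gene is called bound here when at least 1 summit of the peak list from the true replicates lay between 1000 bp upstream and 500 bp downstream of its 5′ end. That list holds the peaks that both replicates ranked alike at an irreproducible discovery rate (IDR) of 0.01, and has 4560 peaks. Of the 31 rps genes, 28 were bound, or 90.3% (95% Wilson interval 75.1 to 96.7%). Over all 19973 protein-coding genes the share was 14.1%. Each of the 28 bound rps genes had exactly 1 summit in its window, as did 95.5% of bound protein-coding genes. The 3 unbound genes were rps-7, rps-16 and rps-25. Counting only genes with a summit or at least a candidate peak of the true replicates' ranked list in the window, 28 of 29 rps genes were bound (96.6%), against 42.1% of the 6685 such protein-coding genes. The interval covers counting error only and treats genes as separate. No bound rps gene shares its summit with another rps gene, but many share it with another neighbouring gene.

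The signal of a peak is the value that the authors' peak caller gave it. It ranks peaks within 1 list, is not comparable between lists, and comes without an error per peak. The median over the 28 bound rps genes was 854 (113 to 3298, with quartiles at 456 and 1595), against 354 (55.3 to 13097) over the 2812 bound protein-coding genes. Their median rank was 564.5 of 4560, against 1720 over the bound protein-coding genes. The strongest 10% of the list, 456 peaks, held the summits of 12 of the 31 rps genes (38.7%), against 2.10% of all protein-coding genes. These 12, all with a signal over 1000, were rps-12, rps-1, rps-19, rps-15, rps-28, rps-20, rps-24, rps-23, rps-4, rps-0, rps-14 and rps-26. A further 8 had a signal of 500 to 1000 and 8 were under 500. The peaks of 25 rps genes had the smallest IDR that the ranked list gives, 1e-05, as had 37.9% of the 4560 peaks.

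**Figure D1:**
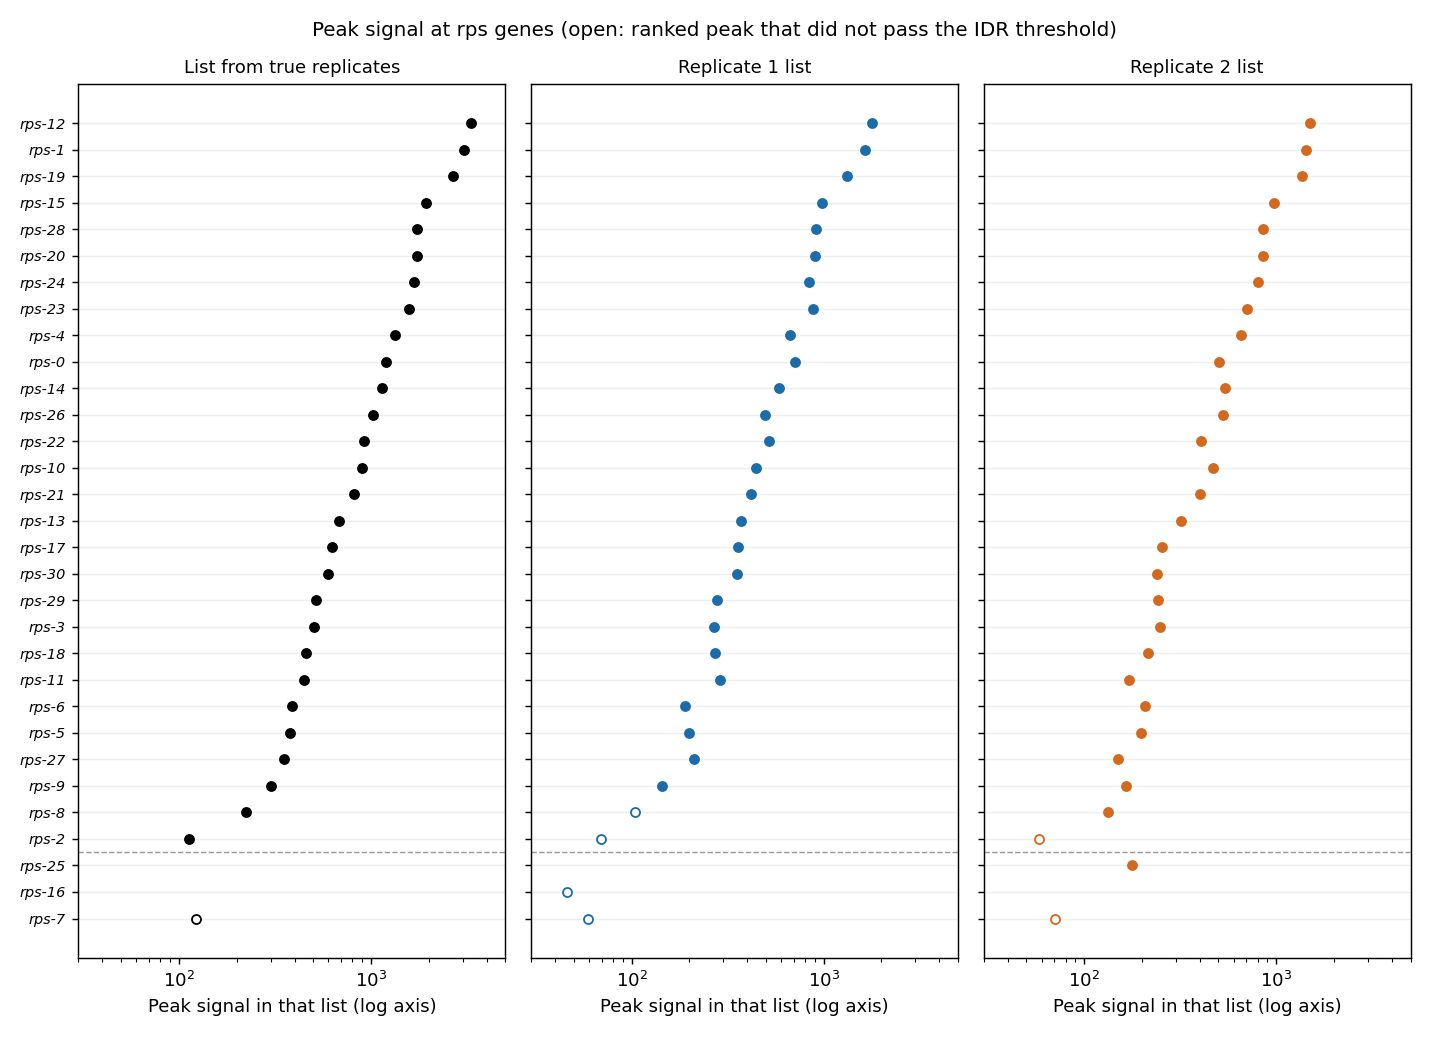
Peak signal (log axis) of each rps gene in the list from the true replicates, the replicate 1 list and the replicate 2 list, ordered by the first, with open circles for ranked peaks that did not pass the IDR threshold and the 3 unbound genes under the dashed line. Signals run from 113 to 3298 in the first panel, the order is close to the same in the other panels, and rps-25 has a passing peak in replicate 2 alone.

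By position in the ribosome, as known from yeast and human structures, 11 of the 13 genes for head proteins were bound (median signal 894) and 17 of the 18 for body and platform proteins (median 813). Both shares were above the 14.1% of all protein-coding genes, and the signals of the classes overlapped over most of their range, from 381 to 3298 for the head and from 113 to 3052 for the body and platform.

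Among the head genes, rps-12, for a protein of the beak of the head, had the highest signal of all rps genes, 3298 (rank 29), with 1779.85 in the replicate 1 list and 1491 in the replicate 2 list. Its peak spans chromosome III, 5678982 to 5679285, in intergenic sequence. The signal of rps-19, whose human counterpart was the first gene linked to Diamond-Blackfan anaemia, was 2665 (rank 57), with 1320.3 in replicate 1 and 1363 in replicate 2 (chromosome I, 9625914 to 9626219). These genes and rps-1 were the only rps genes among the strongest 100 peaks. Next came rps-15, whose protein reaches toward the decoding site, with 1928 in the list from the true replicates, 984 in replicate 1 and 975 in replicate 2. A signal of 1746 was given to rps-28, whose protein lies near the exit of the messenger RNA channel, with 912 in replicate 1 and 857 in replicate 2. For rps-20, whose human counterpart is ubiquitylated when ribosomes collide, the values were 1731, 900.03 in replicate 1 and 856 in replicate 2. All 5 of these genes ranked at 163 or better among the 4560 peaks.

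The other bound head genes had lower values. The signal was 894 for rps-10, another protein marked at collided ribosomes in human cells, with 445 in replicate 1 and 469 in replicate 2. It was 626 for rps-17 (358 in replicate 1 and 254 in replicate 2) and 516 for rps-29 (280.1 and 243), a small zinc-binding protein. The gene of the protein at the entry of the messenger RNA channel, rps-3, had 504, with 269 in replicate 1 and 247 in replicate 2. In each replicate list these 4 genes lay below the 5 head genes of higher signal. Both rps-18, with 458 (272 in replicate 1 and 216 in replicate 2), and rps-5, with 381 (198 in each replicate), still ranked above the median bound gene, which had 354. The protein of rps-5 touches the messenger RNA where it leaves the ribosome.

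Among body and platform genes, rps-1, for a platform protein near the exit of the messenger RNA, had 3052 (rank 39), with 1644 in replicate 1 and 1436 in replicate 2. The peak spans chromosome III, 4475509 to 4475817, and its summit lies in an exon of the non-coding RNA gene F56F3.10. A step below, rps-24 had 1668 (844 in replicate 1 and 807 in replicate 2) and rps-23, whose protein forms part of the decoding centre, 1570.4 (875 and 708). The values for rps-4 were 1329, 671 in replicate 1 and 654 in replicate 2. Of these 4 genes, rps-1 was the highest and rps-4 the lowest in both replicate lists.

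Then followed rps-0, whose human counterpart is also known as a laminin receptor, with 1204 (708 in replicate 1 and 505 in replicate 2), and rps-14, a platform protein, with 1142 (588 and 539). The signal of rps-26, whose protein contacts messenger RNA upstream of the start codon, was 1026, with 494 in replicate 1 and 526 in replicate 2. That of rps-22 was 916 (517 in replicate 1 and 404 in replicate 2) and that of rps-21 was 813 (419 and 401). Of these 5 genes, rps-21 was the lowest in all 3 lists. The next were rps-13 with 679 (370.2 in replicate 1 and 319 in replicate 2) and rps-30 with 596 (356 and 238). In mammals the rps-30 protein is made as a fusion with a ubiquitin-like protein.

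The weakest body genes included rps-6, whose protein is the classical substrate of the S6 kinase, with 388, 189 in replicate 1 and 206 in replicate 2. For rps-11 the signal was 449 (288 in replicate 1 and 172 in replicate 2), and for rps-27, a zinc-binding protein, it was 352 (211 and 150.3). The rps-9 peak had 300.2, with 144 in replicate 1 and 166 in replicate 2. Only rps-27, rps-9, rps-8 and rps-2 lay under the median of 354 over bound protein-coding genes.

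The rps-8 and rps-2 peaks were the only ones of the 28 that did not pass in both replicate lists. For rps-8 the main list had a signal of 222 and an IDR of 1.96e-04. Its peak passed in replicate 2, with a signal of 133 and an IDR of 0.00798, and was ranked but did not pass in replicate 1, with 104 and an IDR of 0.0165. For rps-2, whose protein lies at the entry of the messenger RNA channel, the main list had 113 (rank 4448) and an IDR of 0.00525. Its peak passed in neither replicate list, with 69.0 and an IDR of 0.167 in replicate 1 and 58.0 and an IDR of 0.671 in replicate 2, and it is not in the list from pooled reads. The bases around the rps-2 summit, printed above, also had the lowest GC content of the rps windows, 19.8% against a median of 50.5%.

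The 3 unbound genes differed in how near they came to a call. For rps-7, whose human counterpart is linked to Diamond-Blackfan anaemia, a peak of signal 123 lay 257 bp upstream of the 5′ end (chromosome I, 10330422 to 10330821) with an IDR of 0.0119, just past the threshold of 0.01. It was ranked in both replicates, with 59.3 and an IDR of 0.128 in replicate 1 and 70.4 and an IDR of 0.0124 in replicate 2, and it is in the list from pooled reads at rank 4291. The signal of this peak is above the 113 of rps-2, which passed. The next passing summit upstream of rps-7 is 68484 bp away.

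For rps-25, whose yeast and human counterparts are needed for initiation at some viral internal ribosome entry sites, the ranked lists of the true replicates and of replicate 1 hold no peak in the window. The replicate 2 list has one, 323 bp upstream (chromosome IV, 5947746 to 5948109), with a signal of 177, an IDR of 2.45e-05 and rank 1602. The list from pooled reads has a peak of 287 at rank 2130, 327 bp upstream. The replicates thus differ at this gene, and why replicate 1 has no peak there was not tested. The nearest passing summit is 754 bp downstream of the 5′ end, outside the window, with a signal of 154.

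For rps-16, whose protein contacts the transfer RNA in the peptidyl site, only replicate 1 ranked peaks in the window, 2 in number, of which the stronger had a signal of 45.9 and an IDR of 0.408 and lay 971 bp upstream. Its neighbour fib-1, which encodes the rRNA methyltransferase fibrillarin, lies on the same strand and ends 109 bp upstream of the rps-16 5′ end. A passing summit of signal 1073 (chromosome V, 15002160 to 15002417) is 80 bp upstream of fib-1 and 1762 bp upstream of rps-16. All 3 unbound genes have an upstream neighbour on the same strand, but at unlike distances. It lies 109 bp from rps-16, 478 bp from rps-7 and 14084 bp from rps-25.

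Summits lay upstream of the 5′ end in all 28 bound rps genes, against 91.5% of bound protein-coding genes. The median distance was 287 bp (with quartiles at 247.5 and 371 bp and a largest value of 603 bp). Over bound protein-coding genes it was 221.5 bp (quartiles at 118 and 418 bp), and distances ran to 999 bp upstream and 500 bp downstream. The quartiles of bound rpl genes, at 249.5 and 366.5 bp, were close to those of rps genes. Of bound protein-coding genes, 62.7% had a summit within the range that the rps genes span. In 20 rps genes the summit was 200 to 400 bp upstream, a share that was not computed over other genes. The summit was nearer in 4, namely rps-22 (123 bp), rps-12 (159 bp), rps-13 (199 bp) and rps-2, the nearest of all, with its summit at base 7926492 and its 5′ end at 7926391. It was farther in 4 others, rps-28 (450 bp), rps-29 (506 bp), rps-18 (557 bp) and rps-27 (603 bp). Distance and signal were weakly related over the 28 genes (Spearman's rho of -0.09, given as a description, since the genes share libraries).

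**Figure D2:**
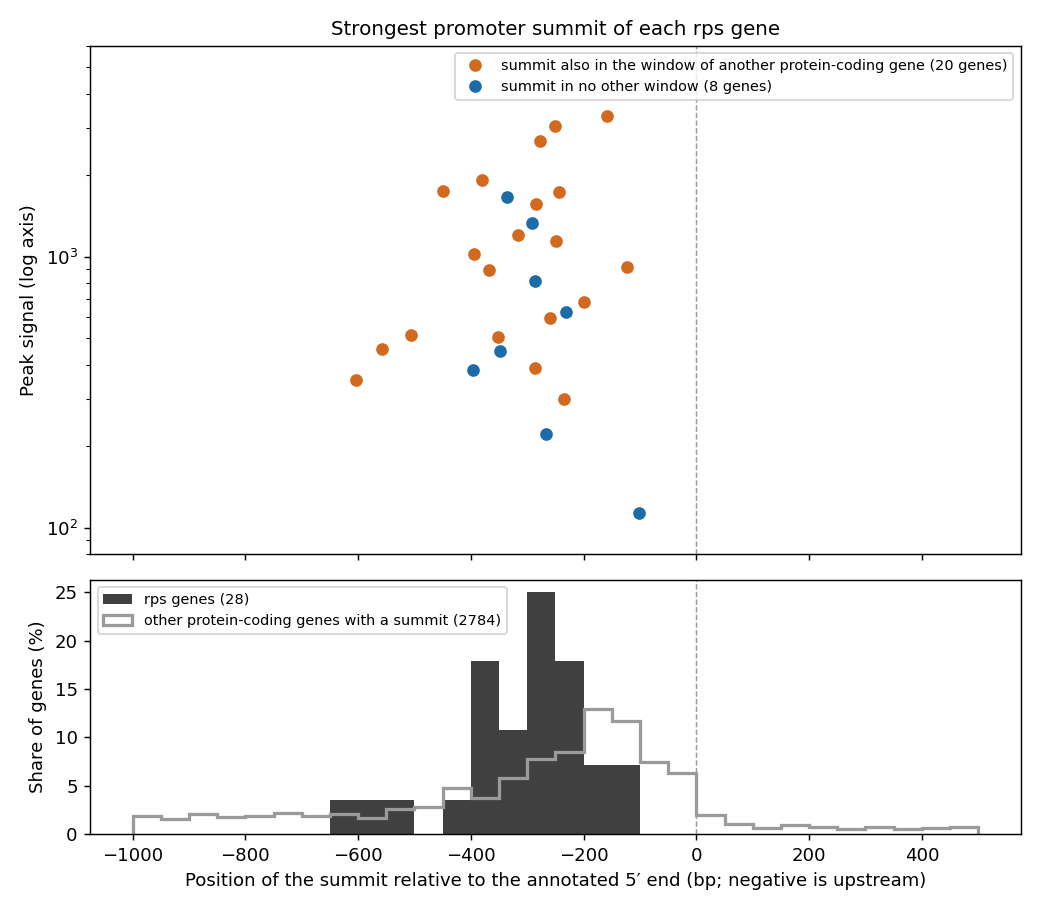
Top, peak signal (log axis) against the position of the summit relative to the annotated 5′ end (bp, negative is upstream) for the 28 bound rps genes, coloured by whether the summit also lies in the window of another protein-coding gene. Bottom, share of genes (%) in bins of position for the rps genes and for the other bound protein-coding genes, where the rps summits fall between that of rps-2, the nearest, and that of rps-27, at 603 bp upstream.

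Many rps genes share the promoter region with a gene that points the other way, and a summit in both windows cannot be given to one of them. In 20 of the 28 bound rps genes (71.4%) the summit also lay in the window of another protein-coding gene, against 48.0% of bound protein-coding genes. In 19 of the 20 that gene was the divergent upstream neighbour. The exception is rps-28, whose summit is also 869 bp upstream of Y41D4B.4, the next gene on the same strand. A divergent upstream neighbour was found in 22 of the 31 rps genes (71.0%), against 46.2% of protein-coding genes. All 22 were bound, against 19.7% of protein-coding genes with a divergent neighbour. The neighbour was taken at any distance. It lay 1895 bp from rps-5, 2701 bp from rps-24 and 14392 bp from rps-28, beyond the window of 1000 bp. Of the 9 rps genes with an upstream neighbour on the same strand, 6 were bound, against 9.28% of such protein-coding genes. The shared summits had a median signal of 971 (300.2 to 3298) and the 8 unshared ones of 537 (113 to 1668), with wide overlap.

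In 3 cases the divergent partner is itself a gene for a protein of the large subunit. The rps-10 summit is 368 bp from rps-10 and 242 bp from rpl-24.1, that of rps-14 is 249 bp from rps-14 and 414 bp from rpl-36, and that of rps-30 is 259 bp from rps-30 and 240 bp from rpl-39. The summits of rps-14 and rps-30 also lie in the window of a further gene, ndab-2 (915 bp) and C26F1.3 (981 bp). Other partners have known roles away from the ribosome. The rps-1 summit is 518 bp from ifet-1, which encodes a translational repressor that binds the cap-binding protein, and the rps-9 summit is 353 bp from lsm-1, for a factor of messenger RNA decapping.

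Several partners are closer to the summit than the rps gene is. The summit of rps-0 is 57 bp from rbg-3, that of rps-29 is 61 bp from the synaptotagmin gene snt-2, that of rps-26 is 63 bp from tmem-107, a gene of the ciliary transition zone, and that of rps-12 is 134 bp from the kinetochore gene ska-3. Those of rps-27, rps-20 and rps-19 are 145 bp from picd-1, 154 bp from ekl-4 and 167 bp from hsr-9. The rps-18 summit lies inside sec-61.A, a gene for the protein translocation channel, in its 5′ UTR and at -142 bp on the upstream scale, that is, downstream of its 5′ end. Partners of the remaining shared summits were polh-1 for rps-22 (143 bp), nfx-1 for rps-13 (183 bp), sna-3 for rps-3 (240 bp), usp-3 for rps-6 (244 bp), dpm-3 for rps-23 (250 bp) and F36A2.9 for rps-15 (400 bp). Of the 28 summits, 14 were nearest to the 5′ end of the rps gene and 14 nearer to that of a sharing gene. The same split by strongest summit was not computed over all bound protein-coding genes. Where each summit counted only for its nearest 5′ end, 14 of the 28 bound rps genes kept one. Of the 2812 bound protein-coding genes, 2122 did.

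The 8 rps genes with a summit to themselves were rps-2, rps-4, rps-5, rps-8, rps-11, rps-17, rps-21 and rps-24. By annotation at the summit, 23 of the 28 lay in intergenic sequence and 5 in a gene body. Those of rps-1, rps-6, rps-10 and rps-30 lay in exons of non-coding RNA genes and that of rps-18 as given above. The intergenic share over all promoter summits was not computed, so these counts are not read as particular to rps genes. An annotated snoRNA gene lies within rps-4, rps-12, rps-13, rps-23 and rps-29. By chromosome, the bound rps genes were 7 of 8 on I, against 17.5% of the protein-coding genes there, and 1 of 1 on II, against 13.8%. They were 9 of 9 on III (against 20.6%), 9 of 10 on IV (against 12.6%) and 2 of 3 on V (against 10.4%). None of the 31 lies on X, which holds 13.7% of protein-coding genes.

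Each replicate was also thresholded alone by the authors, to 3780 peaks in replicate 1 and 3763 in replicate 2. In 26 of the 31 rps genes (83.9%) the lists of both replicates had a summit in the window, against 10.8% of protein-coding genes. Those 26 are the 28 bound genes without rps-2 and rps-8. The signals of the replicates gave Spearman's rho of 0.970 and Pearson's r of log2 signal of 0.973 over the 26 genes, a description in which all points share the same 2 libraries. The median log2 ratio of replicate 1 to replicate 2 was 0.12, from -0.20 in rps-9 to 0.75 in rps-11, with an SD of 0.24. Over the 3058 main peaks matched in both lists the median was 0.20 and the SD 0.32, so the lists differ in scale and a higher value in replicate 1 is not particular to an rps gene. Of the 27 neighbouring pairs in the order of rps signals, 22 were less than 0.24 apart in log2 signal. Neighbours in a sorted list lie close by construction, so this count does not test the order. Genes next to each other in it are not called different. Replicate summits of a gene were at most 51 bp apart, with a median of 5 bp. The rps peaks had a median width of 268.5 bp (144 to 400 bp), against 400 bp over all 4560 peaks. A width of exactly 400 bp was given to 2417 of the 4560 peaks, and to 4 of the 28 rps peaks.

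Other genes of the ribosome were read the same way. Of the 31 rps genes 28 were bound, and of the 47 rpl genes for large subunit proteins 39 (83.0%, Wilson interval 69.9 to 91.1%), with median signals of 854 for rps and 768 for rpl and median distances of 287 and 298 bp. Of the 29 mrps genes, for the small subunit of the mitochondrial ribosome, 9 were bound (31.0%, Wilson interval 17.3 to 49.2%). These 9 had a median signal of 323 and a median distance of 148 bp. None of the 3 rla genes, for the acidic stalk proteins of the large subunit, was bound (Wilson interval 0 to 56.1%). Their nearest summits lay 1298 bp (rla-1), 2671 bp (rla-0) and 15973 bp (rla-2) upstream. The bound share over all protein-coding genes was 14.1%.

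Small subunit proteins and partners without an rps symbol were also bound. The gene ubl-1, for a ubiquitin-like protein fused to a further small subunit protein, had 676 at 210 bp upstream, and rack-1, for a scaffold protein bound to the head, had 187 at 214 bp. The gene ubq-2, for ubiquitin fused to a large subunit protein, had 741 at 484 bp. No summit lay in the window of rsks-1, which encodes the S6 kinase, and the nearest was 1530 bp upstream. Of 9 genes of nucleolar rRNA processing, 6 were bound (66.7%, Wilson interval 35.4 to 87.9%), against 14.1% of all protein-coding genes. The median signal of the 6 was 467. The bound ones were fib-1 (1073), nol-58 (794), nol-56 (693), nol-10 (241), dkc-1 (216) and nol-14 (162), and the unbound ones were nol-6, nol-9 and nol-16.

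**Figure D3:**
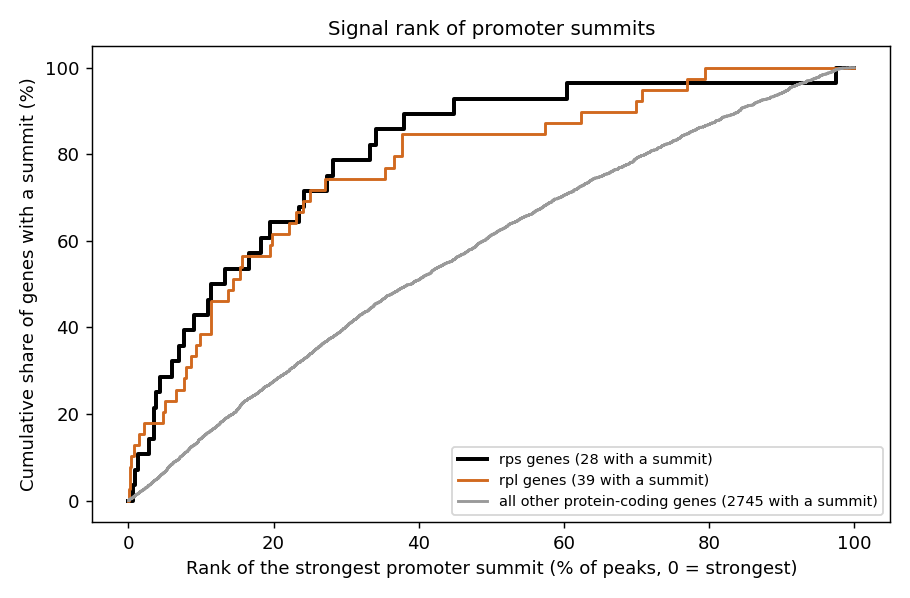
Cumulative share of bound genes (%) against the rank of their strongest promoter summit (% of peaks, 0 is the strongest) for the 28 rps genes, the 39 rpl genes and all other bound protein-coding genes. The rps and rpl curves run together and rise earlier than that of the other genes, with a median rank of 564.5 for rps genes against 1720 over all bound protein-coding genes.

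Words were searched on both strands from 50 bases before to 50 bases after each summit, with overlaps between words allowed. A match is a description of the sequence and not of a binding site. The repeat GAGAGA was in 3 of the 28 rps windows (10.7%; rps-5, rps-8 and rps-11), against 22.3% of the 2210 promoter summits and 25.8% of all 4560 peaks. Nuclear receptor half-sites were searched as AGGTCA with its variant AGTTCA, together with GGGTCA and its own variant GGTTCA, and at least 1 of them was in 1 rps window (3.57%, rps-4), against 12.2% of promoter summits and 13.7% of all peaks. The E-box CACGTG was in 1 (rps-29), against 6.15% of promoter summits and 7.76% of peaks. CCGCCC was in 2 (7.14%; rps-27 and rps-28), against 6.88% and 5.68%. The TATA word TATAAA was in 1 (rps-2), against 5.29% and 5.42%, and the splice acceptor word TTTCAG in 2 (rps-18 and rps-23), against 6.38% and 5.66%. These shares were not tested, and 1 window of the 28 makes up 3.57%. Median GC content was 50.5% in the rps windows (19.8% in rps-2 to 60.4% in rps-29), against 46.5% at promoter summits and 45.5% at all peaks.

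The count of bound rps genes was 25 to 29 of 31 in 10 of the 11 other settings tried. It was 14 (45.2%) where each summit was given to its nearest 5′ end only, against 10.6% of protein-coding genes. The list from pooled reads gave 29, with rps-7 and rps-25 added and rps-2 lost. An IDR of up to 0.05 gave 29, with rps-7 added. A window of 2000 bp upstream gave 29, with rps-16 added by the summit of fib-1, and one of 500 bp gave 25, without rps-18, rps-27 and rps-29. Over the same settings, 8.72 to 18.1% of protein-coding genes were bound. In all, 12 rps genes were bound under every one of these settings, namely rps-1, rps-4, rps-5, rps-9, rps-11, rps-14, rps-15, rps-17, rps-21, rps-22, rps-24 and rps-28. They are the 14 genes of the nearest 5′ end setting without rps-2 and rps-8, so that setting mostly fixes the list. The same count over all protein-coding genes was not made.

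**Figure D4:**
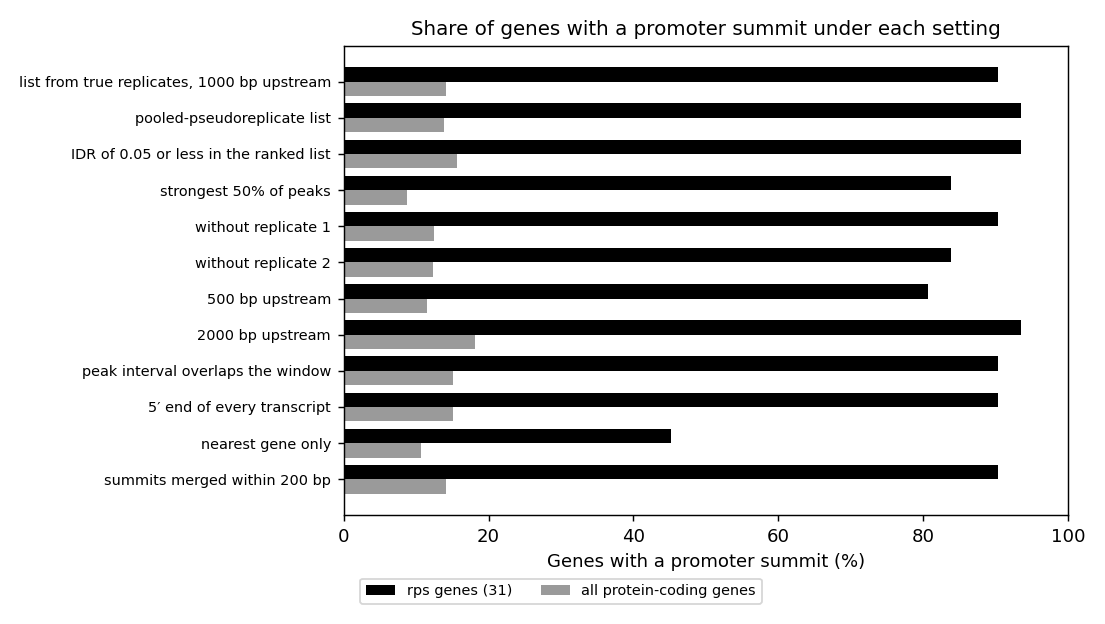
Share of genes with a promoter summit (%) for the 31 rps genes (black) and for all protein-coding genes (grey) in the setting reported above and in the 11 others. The rps share lies between 80.6 and 93.5% except for 45.2% where each summit counts for its nearest gene only, and the share of all protein-coding genes is 18.1% at most.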

How the data were processed

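ChIP-seq, with an anti-GFP antibody according to the description, was analysed from the deposited peak lists of 2 biological replicates, on ce11 per the labels. The authors' lists give each peak a start, an end, a summit offset and a signal value from their peak caller, and the authors' ranked lists also give the −log10 of the IDR. Not given in the sources used here are the aligner, the peak caller and which control was subtracted, if any. Without read counts in the lists, depth is unknown. The 7 lists analysed were the thresholded and ranked lists for the true replicates and for each replicate, and the thresholded list from pseudoreplicates of the pooled reads. A further 16 columns on single replicates carry no sample name and were not used. Thresholded lists lack 24 (true replicates), 15 (replicate 1) and 17 (replicate 2) peaks of the ranked lists with an IDR of 0.01 or less, none of them in the window of an rps gene.

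Summits were placed relative to the 5′ ends of protein-coding genes (Ensembl release 115) with Python 3.11.15, numpy 2.4.6 and scipy 1.17.1, and figures were drawn with matplotlib 3.10.9. Peaks end within the chromosomes of the RefSeq genome, from which sequences were read. A gene's signal and distance are those of its strongest summit between 1000 bp upstream and 500 bp downstream. Peaks of different lists were matched where summits lay within 200 bp. Shares have 95% Wilson intervals. With 1 group there was no comparison between conditions and no test, so no p-value is given. The assignment of summits to windows and the merging of summits were tested on simulated summits at known positions. Sharing, replicate matching and word counts were not tested this way.

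All rps genes are named, with the genes that share their summits, and other ribosome genes are described as lists, named in full where a list has 5 or fewer members; the nucleolar genes were named in addition after their values were seen. Members, lists, roles and words were chosen with earlier results of these data known. The alternatives were the list from pooled reads, an IDR of 0.05, the strongest 50% of peaks, each replicate alone, windows of 500 and 2000 bp upstream, overlap of the peak with the window, the 5′ end of every transcript, the nearest gene only, and summits merged within 200 bp.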

Additional observations from a re-analysis of the deposited data

How the results depend on the processing

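The number of bound rps genes stayed within 25 to 29 under 10 of 11 alternatives and was 14 with the nearest gene only, which by its construction gives each summit to 1 gene. Under that choice no summit can be shared, so the count of shared summits has no value. Median signal over bound rps genes was 905 among the strongest 50% of peaks and 916 with 500 bp upstream, and 402 to 469 in the lists of single replicates, whose scale differs. Median distance was 289.5 bp among the strongest 50% of peaks, 284 bp with 500 bp upstream, 276.5 bp with the nearest gene only and 289.5 to 291.5 bp in the lists of single replicates. Bound protein-coding genes numbered 1741 among the strongest 50% of peaks, where rps-2 and rps-8 were also lost, by construction of the smaller list. Without replicate 1, rps-25 was gained and rps-2 lost. Without replicate 2, rps-2 and rps-8 were lost. No paired analysis was possible because there is 1 group and no result comes from a test. The depth of the libraries is unknown, so a gene without a summit is one where none was detected at this depth.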

Other observations

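Counts of all words of 6 letters in the 28 rps windows were looked through. A pair was picked for a high share there relative to promoter summits. The contrasts with promoter summits given here are therefore what the words were chosen for, and are a description without a test. CAGCCA was in 9 windows (32.1%; rps-0, rps-3, rps-4, rps-14, rps-15, rps-19, rps-20, rps-21 and rps-22), against 4.30% of 2210 promoter summits. CGCAGC was also in 9 (32.1%; rps-3, rps-10, rps-11, rps-12, rps-14, rps-19, rps-21, rps-24 and rps-30), against 5.79% of promoter summits. Either word was in 14 of the 28, against 9.23% of promoter summits, and both were in rps-3, rps-14, rps-19 and rps-21. The words overlap within CGCAGCCA, as in rps-14, so a window with both need not hold them at separate places. In the windows of rpl genes, from which the 3 summits shared with rps genes were left out, CAGCCA was in 6 of 36 (16.7%), CGCAGC in 9 (25%) and either in 13 (36.1%). The rpl windows entered the choice of the words only as part of the promoter summits. The promoter summits include the rps and rpl ones, and base composition was not matched between the sets, so its part in these shares was not tested.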
